A study of Mus musculus with 28 samples.

Results

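The hearts described here came from mice that received myocardial infarction (MI) at 7 days of age and were examined 21 days later, at 28 days of age. The 7d-MI + 21 group (3 mice), in which the left anterior descending coronary artery was ligated, was set against the 7d-SHAM + 21 group (3 mice), operated at the same age without ligation. These 6 libraries, 1 per mouse, are all members of both groups among the 28 libraries of the series. All mice were Hsd:ICR(CD-1), an outbred stock with no engineered allele, and pups stayed with their own litter and mother until sampling. Total RNA was taken from myocardium distal to the ischemic insult, and the paper's discussion speaks of samples from the left ventricular remote zone. Whether some scar or its border was included is not stated. A further 6 libraries of the same follow-up, from mice operated at 1 day of age and sampled at 22 days (1d-MI + 21 and 1d-SHAM + 21, n = 3 each), entered the same statistical model and served for the difference between ages. The mice of each group were numbered with a prefix of their own, which may stand for a litter or batch, and the effect of such a litter or batch cannot be told apart from that of the operation.

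By the end of the first week after birth mouse cardiomyocytes have largely left the cell cycle, and an infarct made then heals by scar. Surviving muscle away from a scar carries extra load. In that setting fibroblasts are known to lay down collagen and the proteins that organise it, cardiomyocytes to re-express genes of the fetal ventricle such as natriuretic peptides, and the heart to rely less on fatty acid oxidation. RNA from a piece of wall mixes all of these cells, and a lower level in such bulk samples cannot separate fewer cells of a type from less RNA per cell.

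The libraries of the shams were uneven. Total counts ranged from 50080081 to 113996785 in 7d-MI + 21 and from 43792265 to 85901570 in 7d-SHAM + 21, and ribosomal RNA loci took 14% to 39.7% of them in 7d-MI + 21 and 33.3% to 67.7% in 7d-SHAM + 21. Reads over 1331 olfactory and vomeronasal receptor genes, which heart muscle should not express, were taken as a gauge of background reads. They came to 0.00702, 0.0227 and 0.0141 reads per kb and 1e6 effective reads in 7d-MI + 21, and to 0.00642, 0.11 and 0.259 in mice 1, 2 and 3 of 7d-SHAM + 21. Sham mice 2 and 3 therefore stood apart from all other mice of the comparison, while sham mouse 1 was like the infarcted mice. Correlation of log2 expression across genes, which are not independent replicates, told the same: sham mouse 1 correlated with the infarcted mice at 0.950 to 0.966, sham mouse 2 at 0.869 to 0.911 and sham mouse 3 at 0.816 to 0.853. Whether sham 1, or shams 2 and 3, is the better reference cannot be read from 3 mice, so the median of each program and cell type list is given against all 3 shams, without sham mouse 1, and without sham mice 2 and 3. The median of all genes was −0.13 with all shams, −0.10 without sham mouse 1 and 0.12 without sham mice 2 and 3. What set these libraries apart was not tested.

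**Figure D1:**
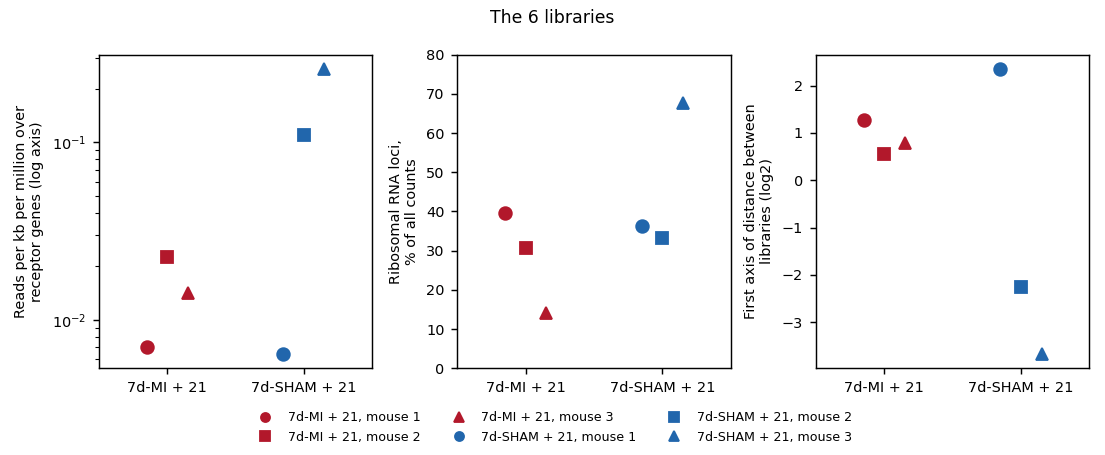
Reads over receptor genes (left, log axis), share of counts from ribosomal RNA loci (middle) and position on the first axis of a distance plot of the libraries (right), 1 point per mouse. Sham mice 2 and 3 lie far above the other 4 mice in receptor reads (0.11 and 0.259) and at the opposite end of the distance axis, and sham mouse 3 has the highest ribosomal share, 67.7%.

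Levels below are CPM (counts scaled to 1e6 per library) after TMM (trimmed mean of M-values), a method that keeps a few very abundant RNAs from setting the level of the rest, and a log2 fold change is 7d-MI + 21 over 7d-SHAM + 21. Of 24646 genes tested, 0 (0%) differed in either direction by edgeR's quasi-likelihood test at an adjusted p (Benjamini-Hochberg) under 0.05, the smallest adjusted p being 0.0678. At an unadjusted p under 0.05, 1555 genes (6.31%) were higher and 2556 (10.4%) lower in 7d-MI + 21. In 1436 genes (5.83%) all 3 infarcted mice lay above all 3 shams and in 1667 (6.76%) below. The log2 fold change was above 0 for 10954 genes (44.4%), with a median of −0.13. DESeq2, another count model, called 342 genes (1.39%) higher and 686 (2.78%) lower, and limma-voom 14 higher and 0 lower. Leaving out sham mouse 1 gave 3151 genes higher (11.5% of 27303) and 2752 lower (10.1%) in the edgeR test. No gene is therefore called here, and the text below describes which groups of genes leaned together, by their counts and medians beside these shares for all genes. Changing the scaling moved the median of all genes to −0.47 with upper-quartile scaling and to 0.01 with TMM computed without ribosomal and mitochondrial loci.

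Promoters of 3 genes that the results below turn on are printed first, as RefSeq gives them for GRCm38.p6, from 250 bases before to 50 bases after the transcription start, 5′ to 3′ on the strand of the gene. *Col3a1* (fibrillar collagen III) lies on chromosome 1, *Postn* (periostin) on chromosome 3 and *C3* (the central complement protein) on chromosome 17. The windows are chr1:45311288-45311587 on the plus strand, chr3:54360857-54361156 on the plus strand and chr17:57228087-57228386 on the minus strand. Capitals mark matches, on either strand, to TATAAA (the letters of the TATA box) and to CAGAC (the core letters bound by SMAD proteins, read as GTCTG on the other strand).
Col3a1: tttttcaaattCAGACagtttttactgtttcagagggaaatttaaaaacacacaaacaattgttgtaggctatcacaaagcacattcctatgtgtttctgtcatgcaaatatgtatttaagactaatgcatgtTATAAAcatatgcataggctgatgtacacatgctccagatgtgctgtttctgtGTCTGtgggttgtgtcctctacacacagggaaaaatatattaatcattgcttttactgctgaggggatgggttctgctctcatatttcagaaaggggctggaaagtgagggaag
Postn: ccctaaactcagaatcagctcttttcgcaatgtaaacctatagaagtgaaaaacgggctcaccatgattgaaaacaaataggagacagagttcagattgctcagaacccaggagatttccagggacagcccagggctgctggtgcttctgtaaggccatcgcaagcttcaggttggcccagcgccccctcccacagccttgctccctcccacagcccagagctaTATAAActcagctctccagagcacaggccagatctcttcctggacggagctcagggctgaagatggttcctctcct
C3: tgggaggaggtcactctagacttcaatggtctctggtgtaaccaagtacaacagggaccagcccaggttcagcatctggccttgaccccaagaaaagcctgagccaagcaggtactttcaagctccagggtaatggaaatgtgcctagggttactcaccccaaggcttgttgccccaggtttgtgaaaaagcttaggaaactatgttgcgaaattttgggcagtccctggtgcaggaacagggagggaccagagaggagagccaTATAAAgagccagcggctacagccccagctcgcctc
The *Col3a1* window held 3 matches and the *Postn* and *C3* windows 1 each, to TATAAA, which lies before the transcription start in *Postn* and after it in *C3*. Of 14448 promoters of the same length 9.22% held TATAAA, with CAGAC in 48.9%, CCAAT in 37.7% and TGANTCA in 6.02%. Among promoters of the collagen list CAGAC stood in 10 of 16, CCAAT in 7, TATAAA in 1 and TGANTCA in 1. Among those of the matricellular list CAGAC stood in 12 of 18, CCAAT in 7, TATAAA in 4 and TGANTCA in 0, and among those of the complement list CAGAC stood in 9 of 15, TATAAA in 4, CCAAT in 1 and TGANTCA in 1. A match says only that these letters are present in the window.

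Collagen genes were higher in the infarcted hearts as a group. All 20 members of the list of fibrillar and network collagens had a log2 fold change above 0, against 44.4% of all genes, with a median of 1.53. An unadjusted p under 0.05 was reached by 13 of them in the higher direction and by 0 in the lower, and in 11 all 3 infarcted mice lay above all 3 shams. DESeq2 called 10 of the 20 higher. The median was 1.87 without sham mouse 1, where 14 passed edgeR's adjusted p, and 1.38 without sham mice 2 and 3, where 16 of the 20 lay above 0 against 57.4% of all genes. The level of the list in each library, taken as the median over members of log2 CPM minus the mean over the 6 libraries, was 1.23, 0.58 and 0.81 in 7d-MI + 21 and −0.44, −1.67 and −0.34 in 7d-SHAM + 21.

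*Col3a1* (chromosome 1, 45311538 to 45349706), the second most abundant collagen of the heart wall in general, had 2046, 1253 and 1720 CPM in 7d-MI + 21 against 687, 312 and 595 CPM in 7d-SHAM + 21. All infarcted mice lay above all shams, and the log2 fold change was 1.65 (SE 0.44, edgeR adjusted p = 0.18). *Col1a2*, the second chain of collagen I, had 954, 486 and 544 CPM in 7d-MI + 21 against 174, 93.3 and 258 CPM in 7d-SHAM + 21, a log2 fold change of 1.91 (standard error 0.47, adjusted p = 0.16). Its partner chain *Col1a1* (chromosome 11, 94936224 to 94953042) did not separate the groups, with 440, 236 and 280 CPM in 7d-MI + 21 against 51.8, 65.2 and 335 CPM in 7d-SHAM + 21. Sham mouse 3 alone reached the level of the infarcted mice for *Col1a1*, whose log2 fold change was 1.08 (SE 0.58, adjusted p = 0.34), 0.72 without sham mouse 1 and 2.67 without sham mice 2 and 3. *Col8a1*, a short-chain network collagen, had 130, 70.8 and 60.5 CPM in 7d-MI + 21 against 27.0, 21.7 and 30.9 CPM in 7d-SHAM + 21. For this gene the log2 fold change of 1.72 (standard error 0.33, adjusted p = 0.10) held at 1.78 without sham mouse 1 and 1.74 without sham mice 2 and 3. *Col6a3*, of the beaded collagen VI around cells, had a log2 fold change of 1.77 (standard error 0.44, adjusted p = 0.16), with no overlap between the groups.

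Proteins that organise the matrix had the largest median of the program lists. All 31 members of the matricellular and adhesive matrix list lay above 0 with a median log2 fold change of 1.87, 28 had an unadjusted p under 0.05, and in 22 the groups did not overlap, all in the higher direction. DESeq2 called 19 of the 31 higher and none lower. The median was 1.89 without sham mouse 1 and 1.76 without sham mice 2 and 3, so it varied little with the choice of shams. Periostin, *Postn* (chromosome 3, 54361109 to 54391037), a product of activated fibroblasts, had 296, 162 and 124 CPM in 7d-MI + 21 against 12.4, 26.3 and 82.3 CPM in 7d-SHAM + 21. The groups did not overlap, but sham mouse 3 lay near the lowest infarcted mouse, and the log2 fold change was 2.27 (SE 0.65, adjusted p = 0.20). Fibulin-1, *Fbln1* (chromosome 15, 85205949 to 85286535), a matrix glycoprotein, had 106, 80.5 and 92.6 CPM in 7d-MI + 21 against 25.9, 15.8 and 30.9 CPM in 7d-SHAM + 21. For this gene the log2 fold change of 1.94 (standard error 0.32, adjusted p = 0.079) was 2.04 without sham mouse 1 and 1.89 without sham mice 2 and 3. *Mfap4*, a microfibril-associated protein of elastic fibres, had 114, 118 and 85.2 CPM in 7d-MI + 21 against 20.1, 17.8 and 38.9 CPM in 7d-SHAM + 21. The lowest infarcted mouse had far more than the highest sham, a log2 fold change of 2.04 (standard error 0.36, adjusted p = 0.079). *Thbs3*, a thrombospondin, had a log2 fold change of 2.06 (standard error 0.37, adjusted p = 0.079). *Ctgf*, the matricellular connective tissue growth factor, had 217, 80.2 and 143 CPM in 7d-MI + 21 against 53.0, 17.9 and 49.99 CPM in 7d-SHAM + 21. That gave a log2 fold change of 1.87 (standard error 0.51, adjusted p = 0.19) with no overlap. *Spp1*, encoding osteopontin, overlapped, with 27.9, 0.436 and 9.61 CPM in 7d-MI + 21 against 0.0639, 0.0358 and 5.24 CPM in 7d-SHAM + 21 (log2 fold change 2.94, SE 1.77, adjusted p = 0.40).

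**Figure D2:**
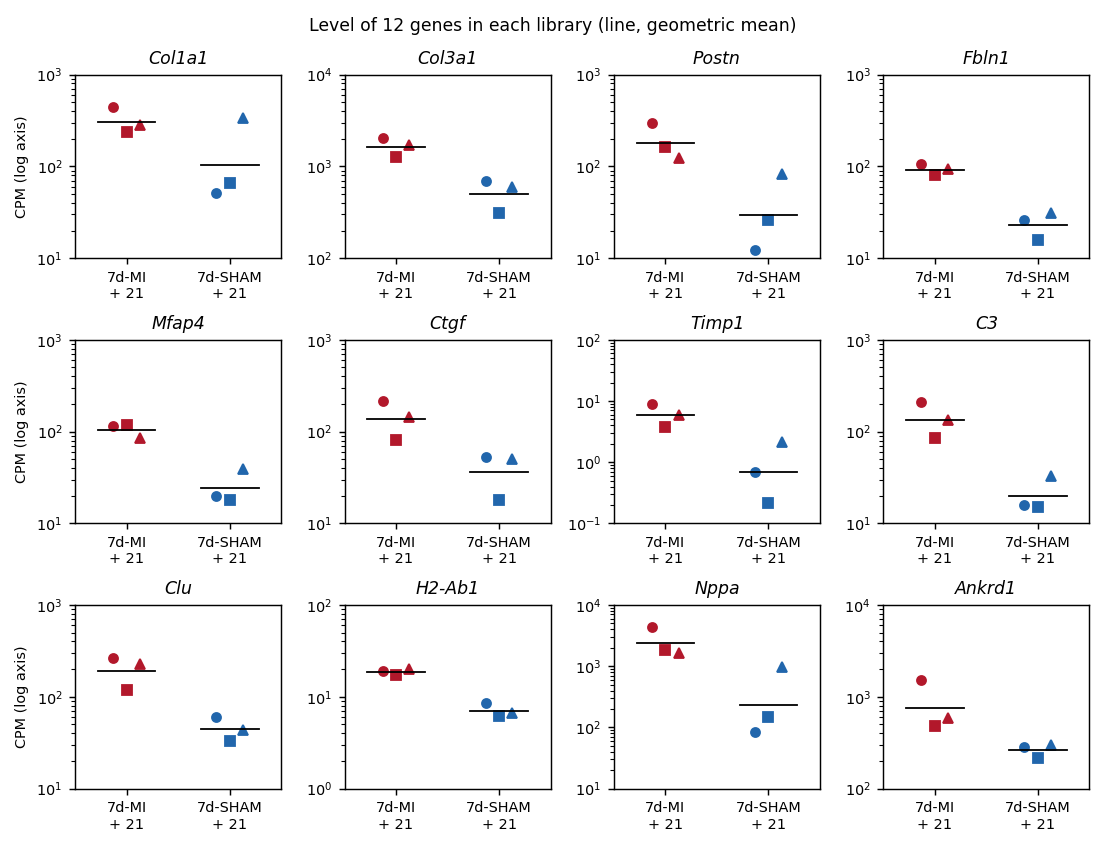
CPM of 12 genes in each mouse (log axis), 7d-MI + 21 left of 7d-SHAM + 21, with circles, squares and triangles for mice 1, 2 and 3 and a line at the geometric mean of each group. *Fbln1*, *Mfap4*, *C3*, *Clu* and *H2-Ab1* separate the groups with a wide gap, whereas the *Col1a1* value of sham mouse 3 (335 CPM) lies inside the infarcted range.

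Small leucine-rich proteoglycans, which bind collagen fibrils, showed a median of 1.15 over 12 genes, 9 of them above 0, and 6 with no overlap between the groups, all higher, and a median of 1.03 without sham mouse 1 and 1.13 without sham mice 2 and 3. Biglycan, *Bgn*, had 574, 428 and 461 CPM in 7d-MI + 21 against 150, 104 and 263 CPM in 7d-SHAM + 21 (log2 fold change 1.501, SE 0.37, adjusted p = 0.16). *Prelp* and *Podn*, proteoglycans of the same family, had log2 fold changes of 1.51 and 1.56. *Ogn* (osteoglycin) went the other way at −0.16, with 117, 132 and 81.8 CPM in 7d-MI + 21 against 64.2, 134 and 173 CPM in 7d-SHAM + 21. The groups overlapped for *Ogn*, and the sign turned to 0.83 without sham mice 2 and 3.

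Enzymes that modify and cross-link collagen had a median of 1.08 over 22 genes, 21 above 0 and 10 without overlap, all higher. Without sham mouse 1 the median was 1.80, and without sham mice 2 and 3 it was 0.76. *Adamts2*, which trims procollagen, had 134, 48.8 and 78.7 CPM in 7d-MI + 21 against 30.9, 11.1 and 20.4 CPM in 7d-SHAM + 21, with no overlap (log2 fold change 2.07, SE 0.42, adjusted p = 0.12). *Lox*, the lysyl oxidase that cross-links collagen, had 33.2, 10.4 and 13.7 CPM in 7d-MI + 21 against 2.43, 5.28 and 12.03 CPM in 7d-SHAM + 21, and overlapped through sham mouse 3. The log2 fold change of *Lox* was 1.55 (SE 0.67, adjusted p = 0.28) and that of its relative *Loxl3* 1.59 (SE 0.40, adjusted p = 0.17).

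Matrix proteases and their inhibitors had a median of 1.00 over 25 genes, 22 above 0 and 10 without overlap, all higher. Its median stood at 1.27 without sham mouse 1 and 0.84 without sham mice 2 and 3. *Mmp2*, a gelatinase of fibroblasts, had 216, 128 and 172 CPM in 7d-MI + 21 against 79.6, 37.3 and 44.8 CPM in 7d-SHAM + 21 (log2 fold change 1.67, SE 0.35, adjusted p = 0.12). *Timp1* (chromosome X, 20870166 to 20874735), the inducible inhibitor of such proteases, had 8.93, 3.80 and 5.88 CPM in 7d-MI + 21 against 0.703, 0.215 and 2.13 CPM in 7d-SHAM + 21. Protease and inhibitor were thus both higher in every infarcted mouse than in every sham, and the log2 fold change of *Timp1* was 2.69 (SE 0.61, adjusted p = 0.13). *Serpine2*, a protease inhibitor of the serpin family, had a log2 fold change of 1.40 and also did not overlap.

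The TGF-beta list, growth factors that drive matrix production in fibroblasts together with their receptors and the binders that store them, had a median of 0.73 over 24 genes, 0.75 without sham mouse 1 and 0.64 without sham mice 2 and 3. Of these 23 lay above 0, 10 had an unadjusted p under 0.05, and 13 did not overlap in the higher direction and 1 in the lower. *Ltbp2*, a latent binding protein of elastic fibres, had 85.6, 16.5 and 30.5 CPM in 7d-MI + 21 against 2.45, 1.52 and 6.97 CPM in 7d-SHAM + 21. For this gene the log2 fold change of 3.63 (standard error 0.66, adjusted p = 0.079) was among the largest of all abundant genes. The ligand *Tgfb3* had 73.4, 46.0 and 49.4 CPM in 7d-MI + 21 against 23.4, 9.56 and 18.1 CPM in 7d-SHAM + 21 (log2 fold change 1.73, SE 0.36, adjusted p = 0.12), and the storage protein *Ltbp3* a log2 fold change of 1.72. *Smad7*, the inhibitor of the pathway, was the member below: 12.1, 15.1 and 12.6 CPM in 7d-MI + 21 against 19.6, 15.7 and 21.0 CPM in 7d-SHAM + 21, a log2 fold change of −0.50 (standard error 0.35, adjusted p = 0.45).

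The myofibroblast and cytoskeleton list had a median of 0.86 over 25 genes, 22 above 0, and 9 did not overlap, all higher, with 1.16 without sham mouse 1 and 0.54 without sham mice 2 and 3. *Vim* (vimentin, the intermediate filament of mesenchymal cells) had 313, 195 and 247 CPM in 7d-MI + 21 against 121, 79.8 and 75.7 CPM in 7d-SHAM + 21. The gap held in every mouse, and the log2 fold change was 1.45 (SE 0.34, adjusted p = 0.14). *Flna* (filamin A) and *Anxa2* (annexin A2) had log2 fold changes of 1.61 and 1.52, again with no overlap.

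The fibroblast marker list moved with these matrix genes. Its 14 markers were all above 0 with a median log2 fold change of 1.36 (1.56 without sham mouse 1, 1.29 without sham mice 2 and 3), and their summed level was 3608 to 5091 CPM in 7d-MI + 21 and 1145 to 2065 CPM in 7d-SHAM + 21. *Col1a1*, *Col3a1*, *Mfap5*, *Dcn* and *Lum* belong to this list and to a matrix list as well. Markers of no matrix list behaved alike: *Meox1*, a transcription factor of activated fibroblasts, had 50.5, 37.9 and 35.5 CPM in 7d-MI + 21 against 11.4, 6.81 and 13.8 CPM in 7d-SHAM + 21 (log2 fold change 1.96, SE 0.35, adjusted p = 0.079), and *Pdgfra*, a receptor of resident fibroblasts, had a log2 fold change of 1.36 (standard error 0.35, adjusted p = 0.17). The part of fibroblast number in the matrix values was not tested.

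Complement genes were higher as a group. The median over 24 genes was 1.21, with 19 above 0, 13 with an unadjusted p under 0.05 and 12 without overlap, all higher, and DESeq2 called 10 higher and none lower. The median was 1.17 without sham mouse 1 and 1.30 without sham mice 2 and 3, and 0.75 with upper-quartile scaling. *C3* (chromosome 17, 57203970 to 57228136) had 210, 85.1 and 134 CPM in 7d-MI + 21 against 16.0, 15.03 and 33.1 CPM in 7d-SHAM + 21. The lowest infarcted mouse lay well above the highest sham, and the log2 fold change was 2.74 (SE 0.48, adjusted p = 0.079). *C4b*, of the classical pathway, had 55.6, 19.9 and 31.0 CPM in 7d-MI + 21 against 4.05, 3.56 and 7.59 CPM in 7d-SHAM + 21 (log2 fold change 2.82, SE 0.50, adjusted p = 0.079), although mice carry a close copy of this gene and the counting rule for shared reads is not known. *Clu* (clusterin), which restrains the terminal complex, had 267, 119 and 225 CPM in 7d-MI + 21 against 60.2, 33.3 and 43.4 CPM in 7d-SHAM + 21. All mice of the groups stood apart for *Clu*, with a log2 fold change of 2.16 (standard error 0.37, adjusted p = 0.079). *C7*, a component of that terminal complex, had 54.8, 64.7 and 43.9 CPM in 7d-MI + 21 against 11.4, 28.9 and 16.8 CPM in 7d-SHAM + 21 (log2 fold change 1.52, SE 0.35, adjusted p = 0.15). *C3* is also a mesothelial marker, and the mesothelium and epicardium list had a summed level of 130.5 to 288.1 CPM in 7d-MI + 21 and 38.7 to 66.1 CPM in 7d-SHAM + 21. Its part in the *C3* values was not tested.

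Acute phase genes and alarmins, secreted by many cells under stress, had a median of 0.76 over the 22 of 24 members measured, 16 above 0, with 7 not overlapping, all higher. The median was 0.72 without sham mouse 1 and 1.80 without sham mice 2 and 3. *Serpina3n* (chromosome 12, 104406729 to 104414329), a serpin from a family of close copies, had the smallest unadjusted p of all genes the text names, with 14.4, 5.67 and 11.6 CPM in 7d-MI + 21 against 0.99, 1.15 and 2.40 CPM in 7d-SHAM + 21. For this gene the log2 fold change was 2.84 (SE 0.44, adjusted p = 0.079). *Hp* (haptoglobin, the scavenger of free haemoglobin) had 3.74, 2.39 and 6.51 CPM in 7d-MI + 21 against 0.0426, 0.573 and 1.20 CPM in 7d-SHAM + 21, with no overlap but a log2 fold change that ranged with the shams used (2.91 with all, 2.34 without sham mouse 1, 6.62 without sham mice 2 and 3).

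Genes of antigen presentation on MHC class II, the molecules by which macrophages and dendritic cells show peptides to T cells, were mixed. Of 13 members 8 lay above 0 with a median of 0.34, and 5 did not overlap, all higher. Upper-quartile scaling turned the median to −0.04, against a median of −0.47 for all genes under that scaling, and the median was 0.17 without sham mouse 1 and 0.97 without sham mice 2 and 3. *Cd74*, the invariant chain, had 16.9, 19.2 and 15.8 CPM in 7d-MI + 21 against 8.65, 7.45 and 6.39 CPM in 7d-SHAM + 21 (log2 fold change 1.21, SE 0.35, adjusted p = 0.20). *H2-Ab1*, the beta chain of the A molecule, had 19.0, 17.4 and 20.2 CPM in 7d-MI + 21 against 8.57, 6.13 and 6.62 CPM in 7d-SHAM + 21 (log2 fold change 1.41, SE 0.40, adjusted p = 0.20). In both, every infarcted mouse lay clear of every sham. *H2-Eb1* had 7.86, 7.26 and 6.21 CPM in 7d-MI + 21 against 5.38, 0.913 and 3.06 CPM in 7d-SHAM + 21, so the infarcted mice were alike and the shams spread widely (log2 fold change 1.18, SE 0.52, adjusted p = 0.28). *Ctss* (cathepsin S, which trims the invariant chain) had a log2 fold change of 1.42 (standard error 0.41, adjusted p = 0.20) without overlap.

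Interferon-stimulated genes leaned higher in 31 of 33 members, with a median of 0.65 (0.83 without sham mouse 1, 0.71 without sham mice 2 and 3) and 6 not overlapping, all higher. The guanylate-binding protein *Gbp2* had 16.7, 9.33 and 7.36 CPM in 7d-MI + 21 against 2.88, 3.48 and 5.15 CPM in 7d-SHAM + 21 (log2 fold change 1.55, SE 0.37, adjusted p = 0.15). The lysosome and phagocyte list had a median of 0.86 over 27 members, 25 above 0 and 10 without overlap, all higher, but the size varied, with 1.503 without sham mouse 1 and 0.48 without sham mice 2 and 3. Its collagen-degrading cathepsin *Ctsk* had 42.1, 11.4 and 25.0 CPM in 7d-MI + 21 against 5.79, 3.89 and 9.46 CPM in 7d-SHAM + 21 (log2 fold change 2.04, SE 0.45, adjusted p = 0.13), and *Apoe*, a lipid carrier of macrophages, a log2 fold change of 1.35. *Lgals3*, a galectin of activated macrophages, overlapped with 10.9, 1.18 and 7.60 CPM in 7d-MI + 21 against 0.319, 1.15 and 4.62 CPM in 7d-SHAM + 21. Macrophage markers summed to 208.9 to 251.2 CPM in 7d-MI + 21 and 151.1 to 199.5 CPM in 7d-SHAM + 21, with a median log2 fold change of 0.55 over 16 markers (0.53 without sham mouse 1, 0.70 without sham mice 2 and 3), and the part of macrophage number in these lists was not tested. Chemokine ligands had a median of 0.13 over the 23 of 25 members measured, 13 of them above 0, and changed sign with the shams used, at −0.16 without sham mouse 1 and 0.64 without sham mice 2 and 3.

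Genes that respond to wall stress and genes of the fetal ventricle were higher as a group. Of 25 members 22 lay above 0, with a median of 1.16, 14 had an unadjusted p under 0.05 and 10 did not overlap, all higher. The median was 1.30 without sham mouse 1 and 0.74 without sham mice 2 and 3. *Nppa* (chromosome 4, 148000722 to 148002079), atrial natriuretic peptide, had 4422, 1857 and 1657 CPM in 7d-MI + 21 against 85.5, 148 and 955 CPM in 7d-SHAM + 21. Shams differed widely among themselves while still below every infarcted mouse, and the log2 fold change was 2.74 (SE 0.88, adjusted p = 0.23). *Nppb*, the related peptide of the ventricle, had 259, 479 and 269 CPM in 7d-MI + 21 against 121, 239 and 234 CPM in 7d-SHAM + 21, a narrow separation (log2 fold change 0.76, SE 0.44, adjusted p = 0.37). *Ankrd1* (chromosome 19, 36111965 to 36119844), a titin-associated protein of stretched sarcomeres, had 1513, 479 and 594 CPM in 7d-MI + 21 against 286, 214 and 297 CPM in 7d-SHAM + 21. Infarcted mouse 1 was much higher than the others, and the log2 fold change of 1.70 (standard error 0.44, adjusted p = 0.17) was 1.05 without it. *Acta1*, the skeletal actin of the fetal heart, had 1019, 947 and 620 CPM in 7d-MI + 21 against 588, 71.2 and 109 CPM in 7d-SHAM + 21. For *Acta1* sham mouse 1 nearly reached the infarcted level: the log2 fold change was 1.75 (SE 0.68, adjusted p = 0.26), 3.30 without that sham and 0.60 without the other shams. *Myh7*, the slow myosin of the fetal ventricle, overlapped, with 1021, 171 and 427 CPM in 7d-MI + 21 against 336, 140 and 110 CPM in 7d-SHAM + 21 (log2 fold change 1.47, SE 0.57, adjusted p = 0.26). That value was 0.64 without infarcted mouse 1, 2.15 without sham mouse 1 and 0.74 without sham mice 2 and 3. Its adult counterpart *Myh6* had a log2 fold change of 0.99 (standard error 0.45, adjusted p = 0.29), in the same direction.

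Atrial markers moved with this group. Over 12 measured atrial cardiomyocyte markers the median log2 fold change was 2.16 (2.199 without sham mouse 1, 2.15 without sham mice 2 and 3), 10 lay above 0 and 7 did not overlap, all higher, and their summed level was 2639 to 5405 CPM in 7d-MI + 21 and 336.1 to 1171 CPM in 7d-SHAM + 21. *Nppa*, *Myl4* and *Myl7* stand in both lists. *Myl4* (chromosome 11, 104550663 to 104595753), the atrial essential light chain, which the fetal ventricle also expresses, had 77.4, 547 and 408 CPM in 7d-MI + 21 against 2.88, 2.203 and 9.10 CPM in 7d-SHAM + 21, a log2 fold change of 6.21 (standard error 1.40, adjusted p = 0.15). *Myl7*, the atrial regulatory light chain, had 13.4, 75.7 and 44.6 CPM in 7d-MI + 21 against 0.0213, 0.734 and 4.44 CPM in 7d-SHAM + 21, and *Sln* (sarcolipin, an atrial brake on the calcium pump) had 5.22, 49.7 and 32.9 CPM in 7d-MI + 21 against 0, 0.143 and 1.42 CPM in 7d-SHAM + 21, where a count of 0 in sham mouse 1 allows up to 0.0319 CPM (3 counts, counting error only). Infarcted mice 2 and 3 were the highest for these 3 genes, whereas infarcted mouse 1 was the highest for *Nppa*. *Dkk3* and *Pam*, a secreted protein and a peptide-amidating enzyme of atrial granules, had log2 fold changes of 2.94 and 1.57. *Bmp10*, a defining atrial ligand, had too few counts to be tested. Among mice operated at 1 day these genes also ranged widely, and the groups overlapped. There *Myl4* had 4.34, 345 and 95.2 CPM in 1d-MI + 21 against 162, 42.6 and 23.8 CPM in 1d-SHAM + 21. *Sln* had 0, 20.8 and 6.03 CPM in 1d-MI + 21 against 15.4, 1.45 and 4.72 CPM in 1d-SHAM + 21. For *Nppa* the values were 392, 948 and 1206 CPM in 1d-MI + 21 against 689, 119 and 965 CPM in 1d-SHAM + 21. The share of atrial tissue in the pieces was not tested.

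Sarcomere, calcium and channel genes gave no steady direction. The adult sarcomere list had a median of 0.28 over 21 genes, 16 above 0 and 0 without overlap in either direction, and the median was 1.18 without sham mouse 1 and −0.41 without sham mice 2 and 3. *Mybpc3*, the cardiac myosin-binding protein, showed that dependence, with 1309, 375 and 1339 CPM in 7d-MI + 21 against 643, 295 and 234 CPM in 7d-SHAM + 21. *Atp2a2*, the calcium pump SERCA2, had 2386, 2425 and 2533 CPM in 7d-MI + 21 against 3133, 3276 and 2075 CPM in 7d-SHAM + 21, which overlapped (log2 fold change −0.21, SE 0.38, adjusted p = 0.79). The calcium list as a whole had a median of 0.08 over 20 genes, 0.36 without sham mouse 1, −0.03 without sham mice 2 and 3 and −0.22 with upper-quartile scaling. *Cacna2d1*, a subunit of the L-type calcium channel, was lower in every infarcted mouse, with 105, 91.8 and 69.5 CPM in 7d-MI + 21 against 147, 250 and 197 CPM in 7d-SHAM + 21 (log2 fold change −1.16, SE 0.39, adjusted p = 0.23). *Kcnj2*, the inward rectifier that sets the resting potential, was lower too, with 37.0, 47.9 and 44.6 CPM in 7d-MI + 21 against 68.2, 134 and 79.3 CPM in 7d-SHAM + 21 (log2 fold change −1.12, SE 0.35, adjusted p = 0.22). Potassium and sodium channels had a median of 0.05 over 22 genes that turned with the shams, at 0.63 without sham mouse 1 and −0.66 without sham mice 2 and 3, where 3 of the 22 lay above 0. Intercalated disc genes had 0.37 over 17, 0.54 without sham mouse 1 and 0.05 without sham mice 2 and 3.

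**Figure D3:**
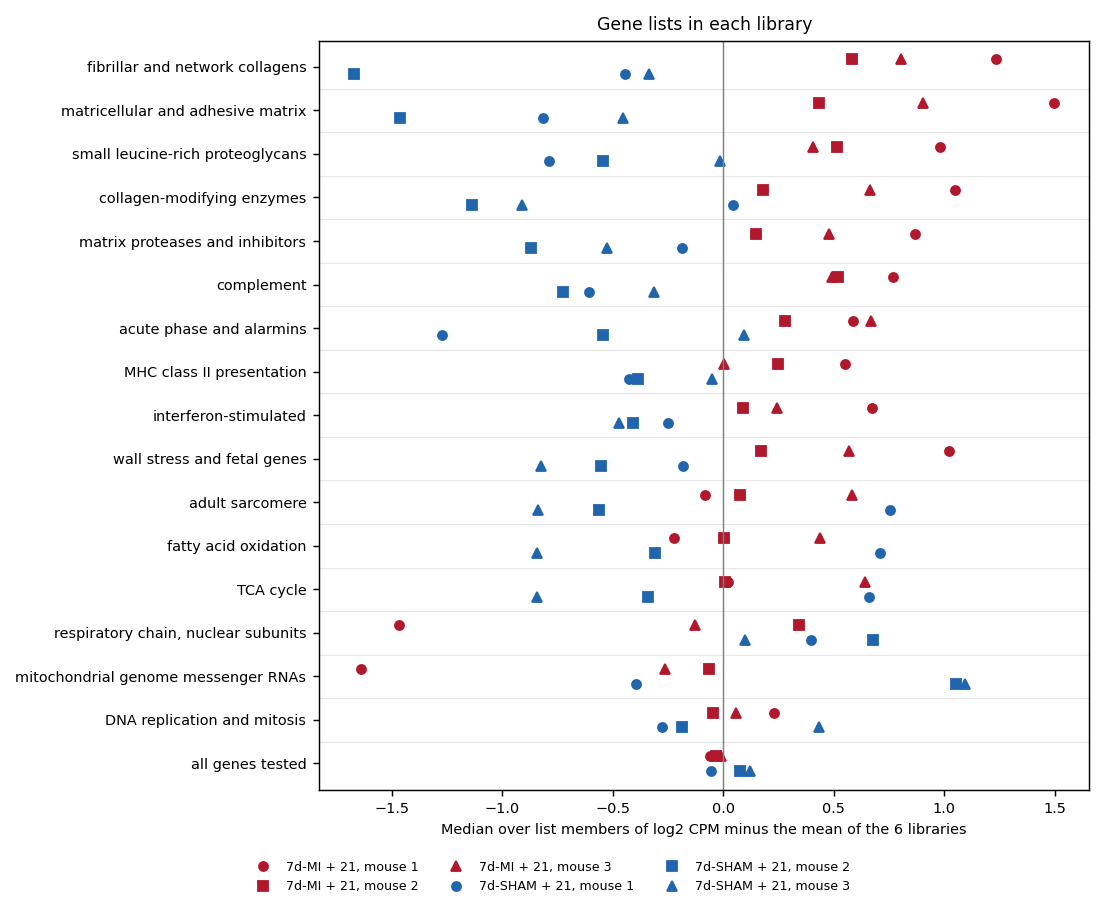
Level of 16 gene lists and of all genes tested in each mouse, as the median over members of log2 CPM minus the gene's mean over the 6 libraries, with 7d-MI + 21 on the upper line of each pair. For collagens the infarcted mice (1.23, 0.58 and 0.81) all lie right of the shams (−0.44, −1.67 and −0.34), whereas for fatty acid oxidation sham mouse 1 (0.71) lies right of every infarcted mouse and sham mice 2 and 3 left of them.

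The direction of the fuel metabolism lists depended on the shams used. Fatty acid oxidation, the main fuel route of the adult heart, had a median of 0.03 over 27 genes, 15 above 0 and 1 without overlap. Its level by mouse was −0.22, 0.01 and 0.44 in 7d-MI + 21 against 0.71, −0.31 and −0.84 in 7d-SHAM + 21, so the infarcted mice lay between sham mouse 1 and the other shams. The median was 0.76 without sham mouse 1 and −0.57 without sham mice 2 and 3. The tricarboxylic acid (TCA) cycle behaved alike, with a median of 0.27 over 23 genes, 0.82 without sham mouse 1 and −0.33 without sham mice 2 and 3. So did glycolysis and pyruvate dehydrogenase (0.37 over 35 genes, 0.97 and −0.24), the carnitine shuttle (0.41 over 12 genes, 0.87 and −0.05) and ketone and branched-chain amino acid use (0.07 over 23 genes, 0.39 and −0.43). No direction is therefore given for these lists.

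Single genes of this group followed that order only in part. Of those named here, *Cpt1b* alone had every infarcted mouse between sham mouse 1 and the other shams. *Slc25a20* (chromosome 9, 108662088 to 108684641), the translocase that brings acylcarnitines into the mitochondrion, had 38.5, 55.9 and 67.3 CPM in 7d-MI + 21 against 91.7, 47.4 and 31.2 CPM in 7d-SHAM + 21. For this gene the log2 fold change was −0.08 (SE 0.40, adjusted p = 0.93), 0.50 without sham mouse 1 and −0.73 without sham mice 2 and 3. *Cpt1b*, the muscle enzyme that makes acylcarnitines, had 197, 206 and 409 CPM in 7d-MI + 21 against 430, 97.6 and 75.1 CPM in 7d-SHAM + 21, and a log2 fold change of 0.43 (standard error 0.59, adjusted p = 0.71). *Cpt1a*, the form of liver and fetal heart, leaned higher at 1.08 (SE 0.39, adjusted p = 0.24). *Pdk4*, the kinase that shuts off pyruvate dehydrogenase, had 58.1, 117 and 125 CPM in 7d-MI + 21 against 214, 131 and 66.6 CPM in 7d-SHAM + 21 (log2 fold change −0.46, SE 0.43, adjusted p = 0.58). For ketone bodies, *Bdh1*, which starts their use, had 59.3, 32.7 and 102 CPM in 7d-MI + 21 against 68.0, 14.8 and 4.22 CPM in 7d-SHAM + 21. Sham mouse 1 lay within the infarcted range and the other shams below it.

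*Ppargc1a* (chromosome 5, 51454250 to 51567726), the coactivator PGC-1 alpha that drives mitochondrial genes, was lower in every infarcted mouse than in every sham, unlike the single genes just named. It had 35.0, 51.8 and 45.1 CPM in 7d-MI + 21 against 60.4, 96.0 and 91.5 CPM in 7d-SHAM + 21. The log2 fold change was −0.91 (SE 0.33, edgeR adjusted p = 0.24), −1.05 without sham mouse 1 and −0.42 without sham mice 2 and 3, and DESeq2 gave an adjusted p of 0.0315. Its partner receptor *Esrra* (ERR alpha) had 29.7, 90.9 and 61.6 CPM in 7d-MI + 21 against 74.8, 51.3 and 31.6 CPM in 7d-SHAM + 21, which overlapped. The whole list of PGC-1, PPAR and ERR regulators had a median of 0.21 over 23 genes (0.73 without sham mouse 1, −0.20 without sham mice 2 and 3), 17 above 0, with 1 higher and 2 lower without overlap. Ketone and branched-chain amino acid use also had 2 of 23 genes lower without overlap and the TCA cycle 1 of 23, against 6.76% of all genes.

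Respiratory chain subunits leaned lower. Of 79 nuclear-encoded subunits 64 lay below 0, with a median of −0.65, and 28 had an unadjusted p under 0.05 in the lower direction against 0 in the higher, beside 10.4% and 6.31% of all genes. In 8 the infarcted mice all lay below the shams, against 6.76% of all genes. The median was −0.63 without sham mouse 1 and −0.62 without sham mice 2 and 3, but −0.20 without infarcted mouse 1 and −1.05 without infarcted mouse 2. Leaving out sham mouse 1 put 22 of the 79 lower and 8 higher at edgeR's adjusted p under 0.05, beside 10.1% and 11.5% of all genes. By mouse, the list stood at −1.47, 0.34 and −0.13 in 7d-MI + 21 against 0.40, 0.68 and 0.10 in 7d-SHAM + 21, so infarcted mouse 1 carried the low end and infarcted mouse 2 lay within the shams. *Atp5e*, the epsilon subunit of ATP synthase, had 24.6, 95.5 and 74.8 CPM in 7d-MI + 21 against 95.9, 306 and 230 CPM in 7d-SHAM + 21, a log2 fold change of −1.70 (standard error 0.50, adjusted p = 0.21) and −1.27 without infarcted mouse 1. *Uqcrb*, a subunit of complex III, had a log2 fold change of −1.55 (standard error 0.58, adjusted p = 0.25) and −1.11 without infarcted mouse 1.

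The 13 messenger RNAs of the mitochondrial genome all lay below 0, with a median of −1.32, 9 with an unadjusted p under 0.05 and 2 without overlap. The size of that depended on the reference: the median was −1.65 without sham mouse 1 and −0.09 without sham mice 2 and 3. The subunit *mt-Nd3* of complex I had 3.19, 17.3 and 10.4 CPM in 7d-MI + 21 against 15.3, 72.9 and 101 CPM in 7d-SHAM + 21, so sham mouse 1 was level with infarcted mouse 2. Gene length moved with both lists. Among protein-coding genes the median log2 fold change was −0.48 over 889 genes under 1 kb and 0.13 over 7650 genes over 4 kb. Median lengths were 784 bases for the mitochondrial messenger RNAs, 1465 for the nuclear subunits and 7017 for the collagens. Genes under 1 kb stood at −0.72 in infarcted mouse 1, on the log2 scale relative to the 6 libraries, and at 0.47 and 0.32 in sham mice 2 and 3. The part of length in these results was not tested.

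**Figure D4:**
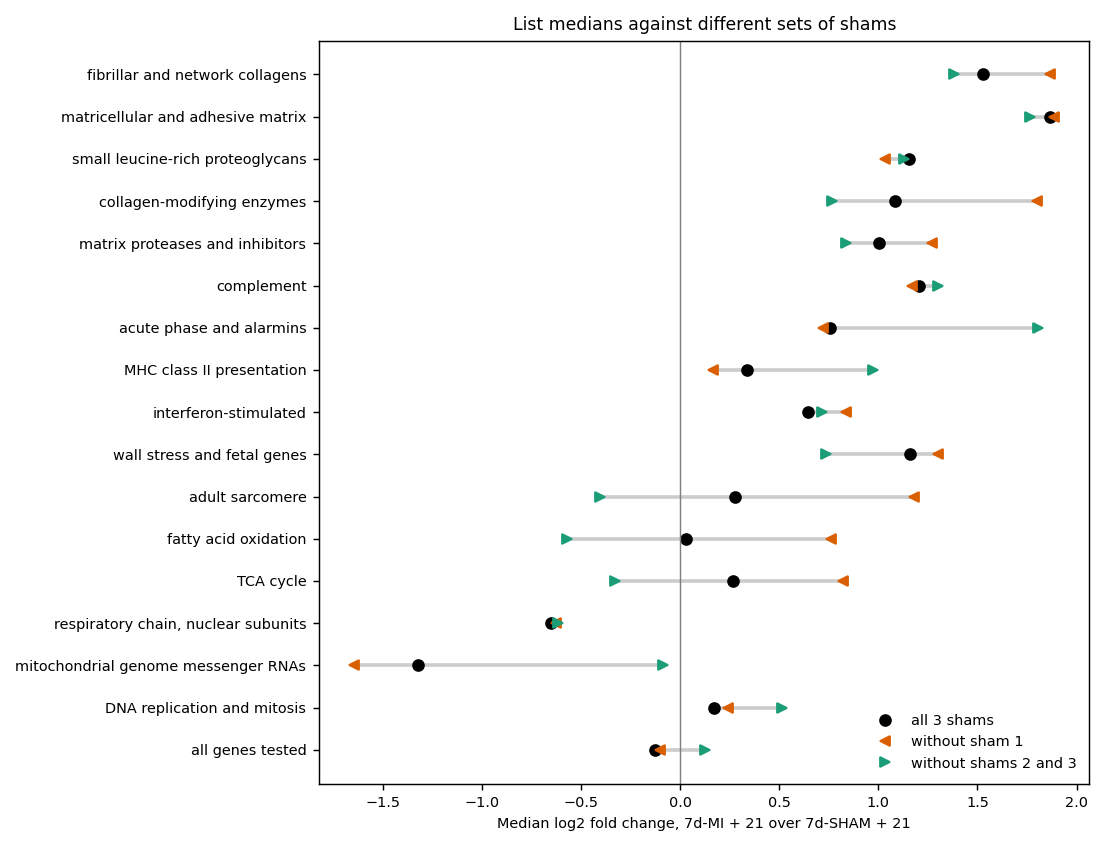
Median log2 fold change (7d-MI + 21 over 7d-SHAM + 21) of 16 gene lists and of all genes tested, with all 3 shams (circles), without sham mouse 1 (left-pointing triangles) and without sham mice 2 and 3 (right-pointing triangles). Matricellular genes stay between 1.76 and 1.89, whereas adult sarcomere (−0.41 to 1.18), fatty acid oxidation (−0.57 to 0.76) and the TCA cycle (−0.33 to 0.82) change sign with the shams used.

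Cell cycle genes differed little. DNA replication and mitosis genes had a median of 0.17 over 39 genes, 27 above 0, with 4 higher and 1 lower without overlap, and −0.13 under upper-quartile scaling, 0.24 without sham mouse 1 and 0.51 without sham mice 2 and 3. *Mcm4*, a subunit of the replicative helicase, had 5.995, 4.62 and 4.63 CPM in 7d-MI + 21 against 2.27, 2.88 and 3.77 CPM in 7d-SHAM + 21 (log2 fold change 0.78, SE 0.37, adjusted p = 0.30). CDK inhibitors and growth arrest genes had a median of −0.08 over 16 measured members, 0.12 without sham mouse 1 and −0.03 without sham mice 2 and 3. *Cdkn1a*, the inhibitor p21, had 6.51, 7.24 and 7.95 CPM in 7d-MI + 21 against 3.94, 4.62 and 6.70 CPM in 7d-SHAM + 21, an overlap at the margin (log2 fold change 0.51, SE 0.32, adjusted p = 0.40).

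Genes of IGF and insulin signaling had a median of 0.41 over 22 measured members (1.02 without sham mouse 1, 0.23 without sham mice 2 and 3), 6 higher and 1 lower without overlap. *Igf1* (chromosome 10, 87858265 to 87937042), the growth factor, had 80.7, 74.6 and 54.1 CPM in 7d-MI + 21 against 24.4, 40.1 and 57.5 CPM in 7d-SHAM + 21, and overlapped through sham mouse 3. The IGF-binding proteins *Igfbp5* and *Igfbp6* separated the groups with log2 fold changes of 1.44 (SE 0.33, adjusted p = 0.14) and 1.67 (SE 0.38, adjusted p = 0.13). *Insr*, the insulin receptor, was tightly grouped and lower, with 71.0, 66.2 and 75.0 CPM in 7d-MI + 21 against 103, 113 and 115 CPM in 7d-SHAM + 21 (log2 fold change −0.64, SE 0.28, adjusted p = 0.28). *Ace*, the angiotensin-converting enzyme, had 104, 56.9 and 131 CPM in 7d-MI + 21 against 46.5, 19.7 and 16.0 CPM in 7d-SHAM + 21 (log2 fold change 1.83, SE 0.46, adjusted p = 0.17), while its list of angiotensin and adrenergic genes had a median of −0.02 over 22 measured members, 0.24 without sham mouse 1 and −0.03 without sham mice 2 and 3.

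Immediate early genes had a median of 0.44 over 23 members, 0.40 without sham mouse 1 and 0.45 without sham mice 2 and 3. Among them the transcription factor *Fos* had 4.25, 3.23 and 2.97 CPM in 7d-MI + 21 against 1.41, 1.06 and 1.11 CPM in 7d-SHAM + 21 (log2 fold change 1.54, SE 0.39, adjusted p = 0.17) and the stress factor *Atf3* a log2 fold change of 2.09 (standard error 0.53, adjusted p = 0.17). *Nr4a3*, an orphan nuclear receptor of the same list, overlapped (log2 fold change 0.28, SE 0.51, adjusted p = 0.79). Of the oxidant defence genes *Gpx3*, the secreted glutathione peroxidase, had 58.6, 84.8 and 118 CPM in 7d-MI + 21 against 40.6, 34.1 and 35.4 CPM in 7d-SHAM + 21, clear of every sham (log2 fold change 1.25, SE 0.33, adjusted p = 0.18). The remaining lists had medians of 0.47 (oxidant production and defence), 0.35 (lipid uptake and droplets), 0.42 (serine synthesis and Atf4), 0.43 (circadian clock), 0.46 (VEGF and angiopoietin), 0.53 (heat shock), 0.18 (apoptosis) and 0.05 (ribosomal proteins). Without sham mouse 1 these medians were 0.84 for oxidant production and defence, 1.07 for lipid uptake, 0.84 for serine synthesis, 0.97 for the clock, 1.02 for VEGF, 0.79 for heat shock, 0.46 for apoptosis and 0.32 for ribosomal proteins. Without sham mice 2 and 3 they were −0.03 for oxidant production and defence, −0.27 for lipid uptake, 0.43 for serine synthesis, 0.25 for the clock, 0.11 for VEGF, 0.06 for heat shock, 0.07 for apoptosis and −0.29 for ribosomal proteins, so oxidant defence, lipid uptake and ribosomal proteins changed sign. Medians near 0 depended on the scaling: with upper-quartile scaling they were −0.25 for potassium and sodium channels, −0.31 for chemokine ligands, −0.18 for fatty acid oxidation, −0.04 for PGC-1, PPAR and ERR regulators, −0.28 for ketone and branched-chain amino acid use, −0.25 for cytosolic ribosomal proteins, −0.09 for intrinsic apoptosis and caspases and −0.11 for ventricular cardiomyocyte markers. With TMM computed without ribosomal and mitochondrial loci, CDK inhibitors and growth arrest genes stood at 0.06 and angiotensin and adrenergic signaling at 0.09. Technical lists had medians of −1.51 (ribosomal RNA loci), −1.004 (nuclear noncoding RNA) and −0.19 (replication-dependent histones).

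Defining markers of ventricular muscle were present throughout, at a summed 18370 to 23230 CPM in 7d-MI + 21 and 14380 to 24870 CPM in 7d-SHAM + 21, with a median log2 fold change of 0.11 over 12 markers, which was 1.002 without sham mouse 1 and −0.41 without sham mice 2 and 3. Endothelial markers summed to 890.8 to 1126 CPM in 7d-MI + 21 and 865 to 1310 CPM in 7d-SHAM + 21 (median 0.33 over 14), and smooth muscle markers to 663 to 798.7 CPM in 7d-MI + 21 and 448 to 818.7 CPM in 7d-SHAM + 21 (median 0.54 over 13). In these 3 lists the ranges of the groups overlapped. The endothelial median was 1.07 without sham mouse 1 and −0.12 without sham mice 2 and 3, and that of smooth muscle 1.04 without sham mouse 1 and 0.25 without sham mice 2 and 3. Lymphocyte markers were scarce, with 11.4 to 19.0 CPM in 7d-MI + 21 and 7.73 to 21.98 CPM in 7d-SHAM + 21, as were neutrophil and mast cell markers, with 6.61 to 12.3 CPM in 7d-MI + 21 and 4.26 to 17.9 CPM in 7d-SHAM + 21. Conduction and nerve markers summed to 24.8 to 40.9 CPM in 7d-MI + 21 and 29.9 to 41.6 CPM in 7d-SHAM + 21. Median log2 fold changes were −0.74 for lymphocyte, −0.11 for neutrophil and mast cell and −0.22 for conduction and nerve markers, again with overlapping sums. All of these turned without sham mice 2 and 3, to 1.42 for lymphocyte, 3.60 for neutrophil and mast cell and 0.71 for conduction and nerve markers. Without sham mouse 1 they were −1.16 for lymphocyte, −0.59 for neutrophil and mast cell and 0.18 for conduction and nerve markers, and without sham mouse 3 alone lymphocyte markers stood at 0.22 and neutrophil and mast cell markers at 0.67. Sham mouse 1 had no count for 4 of 12 neutrophil and mast cell, 1 of 14 lymphocyte and 2 of 14 conduction and nerve markers. The medians without sham mice 2 and 3 therefore rest partly on values at the floor, and their size is not a measure of level.

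Tissues that line a piece of wall or can adhere to it were uneven between mice. The mesothelium and epicardium list, whose summed level did not overlap between the groups, had a median of 1.82 over 13 measured markers, all above 0. That median was 0.85 without infarcted mouse 1, 1.35 without sham mouse 1 and 3.26 without sham mice 2 and 3, where 11 of the 13 lay above 0. *Krt18* (chromosome 15, 102028216 to 102032026), a keratin of the outer lining, had 11.4, 0.938 and 2.90 CPM in 7d-MI + 21 against 0.0213, 0.0179 and 0.222 CPM in 7d-SHAM + 21 (log2 fold change 6.44, SE 1.04, adjusted p = 0.079, from very few counts in the shams), and *Upk3b*, another such marker, a log2 fold change of 2.71. White adipocyte markers summed to 294.5 to 608.8 CPM in 7d-MI + 21 and 520.3 to 946.6 CPM in 7d-SHAM + 21, yet the adipocyte-restricted *Adipoq* (adiponectin) had 4.14, 3.43 and 5.64 CPM in 7d-MI + 21 against 0, 0.322 and 4.04 CPM in 7d-SHAM + 21. *Cfd* (adipsin), of the adipocyte and complement lists, had 6.38, 3.86 and 5.58 CPM in 7d-MI + 21 against 0, 0.215 and 1.07 CPM in 7d-SHAM + 21. Brown adipocyte markers summed to 236.7 to 748.5 CPM in 7d-MI + 21 and 743.7 to 1570 CPM in 7d-SHAM + 21, a list that holds *Ppargc1a*. Valve and cartilage-like markers summed to 85.9 to 294.9 CPM in 7d-MI + 21 and 13.6 to 108.7 CPM in 7d-SHAM + 21, with *Comp*, which is also a matricellular gene, at 70.4, 11.2 and 21.4 CPM in 7d-MI + 21 against 1.06, 1.40 and 5.46 CPM in 7d-SHAM + 21. Skeletal muscle markers summed to 3681 to 10900 CPM in 7d-MI + 21 and 4633 to 12460 CPM in 7d-SHAM + 21, and erythroid markers to 433.1 to 822 CPM in 7d-MI + 21 and 447.4 to 610.6 CPM in 7d-SHAM + 21, with the embryonic globins *Hbb-bh1* and *Hbb-y* at 0 in all infarcted mice. Both globins had some counts among the shams but too few counts to be tested, so no difference is read from them. Medians were 0.72 for white adipocyte, −1.35 for brown adipocyte, 1.31 for valve and cartilage-like, −0.84 for skeletal muscle and −0.19 for erythroid markers. Without sham mice 2 and 3 they were 3.94 for white adipocyte, −0.32 for brown adipocyte, 5.19 for valve and cartilage-like, 0.76 for skeletal muscle and 0.17 for erythroid markers, the last pair with the sign turned. Without sham mouse 1 they were 1.43 for white adipocyte, −1.56 for brown adipocyte, 1.04 for valve and cartilage-like, −0.54 for skeletal muscle and −0.35 for erythroid markers, and the valve and cartilage-like median was 0.70 without infarcted mouse 1. Sham mouse 1 had no count for 3 of 14 white adipocyte, 3 of 9 brown adipocyte and 3 of 14 valve and cartilage-like markers. The same held for 4 of 14 skeletal muscle markers. Medians of these lists without sham mice 2 and 3 therefore rest partly on values at the floor. The part of lining or adhering tissue in the results above was not tested.

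The largest differences by size, among abundant protein-coding genes whose groups did not overlap, were those of *Myl4*, *Sln* and *Myl7* given above, followed by *Comp* (log2 fold change 3.75, SE 0.84, adjusted p = 0.13), *Ltbp2* and the cartilage matrix protein gene *Cilp*. *Cilp* had 131, 42.1 and 53.5 CPM in 7d-MI + 21 against 2.93, 3.24 and 14.9 CPM in 7d-SHAM + 21, a log2 fold change of 3.44 (standard error 0.69, adjusted p = 0.12). Genes at the lower end included *mt-Atp6* (−1.89), *Nhsl2* (−1.73), *Atp5e*, the transcription factor gene *Sox12* (−1.61) and *Uqcrb*.

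The contrast between the MI effects at the 2 ages asks whether 7d-MI + 21 departs from its shams more than 1d-MI + 21 does from its own. By edgeR's interaction test 0 of 24646 genes (0%) passed an adjusted p under 0.05, with a smallest adjusted p of 0.0728. An unadjusted p under 0.05 was reached by 927 genes, and DESeq2 called 44. Among program lists the ages lay furthest apart in matrix and complement: the median effect was 1.87 in the older and 0.16 in the younger mice for matricellular genes, 1.53 and 0.60 for collagens, 1.21 and −0.32 for complement and 1.15 and −0.11 for small leucine-rich proteoglycans. For the collagen-modifying enzymes it was 1.08 and 0.71 and for the myofibroblast list 0.86 and 0.85, nearer to each other. Mesothelial and epicardial markers differed more than any of these, with 1.82 and −1.11, and their part in the complement difference was not tested. Also far apart were markers of white adipocytes (0.72 and −1.82), valve and cartilage-like tissue (1.31 and −0.79) and atrium (2.16 and 0.51). Skeletal muscle (−0.84 and 0.20) and brown adipocyte markers (−1.35 and −0.71) lay apart the other way. The part of these tissues in the difference between ages was not tested. Fibroblast markers moved with the matrix lists here too, at 1.36 in the older and 0.33 in the younger mice, and their part was not tested either. The medians of the older mice used here rest on all 3 shams, and many varied with the shams used, as given above. Libraries of the younger mice were also uneven. Receptor reads per kb and 1e6 effective reads were 0.00711 to 0.0374 in 1d-MI + 21 and 0.0347 to 0.0934 in 1d-SHAM + 21, and ribosomal RNA loci took 3.96% to 55% of counts in 1d-MI + 21 and 21.8% to 80% in 1d-SHAM + 21. The 1d-SHAM + 21 library at 80% stood apart from the other 11 on the second axis of the distance plot (3.45).

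*C3* had the smallest adjusted p of the genes named, with a difference of 4.16 on the log2 scale (SE 0.66, adjusted p = 0.10), with 6.84, 18.5 and 17.6 CPM in 1d-MI + 21 against 35.1, 29.6 and 49.4 CPM in 1d-SHAM + 21 beside the older mice above. In the younger mice every infarcted heart thus lay below every sham for *C3*, the opposite of the older mice. *C7* behaved alike, with a difference of 2.94 (SE 0.50, adjusted p = 0.17) and 6.18, 7.89 and 7.60 CPM in 1d-MI + 21 against 16.2, 17.1 and 24.7 CPM in 1d-SHAM + 21. *H2-Eb1* (chromosome 17, 34305877 to 34316199) differed by 4.10 (SE 0.78, adjusted p = 0.32), with 0.353, 0.458 and 0.174 CPM in 1d-MI + 21 against 1.45, 3.23 and 2.50 CPM in 1d-SHAM + 21. *Gpx3* also turned, with 28.9, 37.7 and 26.6 CPM in 1d-MI + 21 against 80.9, 72.1 and 49.7 CPM in 1d-SHAM + 21 (difference 2.37, SE 0.47, adjusted p = 0.39). *Nr4a3* (chromosome 4, 48045153 to 48086447) went the other way by −3.86 (SE 0.74, adjusted p = 0.32), with 57.7, 46.4 and 22.4 CPM in 1d-MI + 21 against 2.42, 1.29 and 3.42 CPM in 1d-SHAM + 21 and no such gap in the older mice. *Ppargc1a* was higher in the younger infarcted mice, with 233, 202 and 154 CPM in 1d-MI + 21 against 96.5, 63.3 and 95.1 CPM in 1d-SHAM + 21, and differed by −2.12 (SE 0.47, adjusted p = 0.60). *Cdkn1a* had 24.4, 17.9 and 17.6 CPM in 1d-MI + 21 against 6.18, 4.52 and 7.57 CPM in 1d-SHAM + 21 (difference −1.20, SE 0.45, adjusted p = 1.00).

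**Figure D5:**
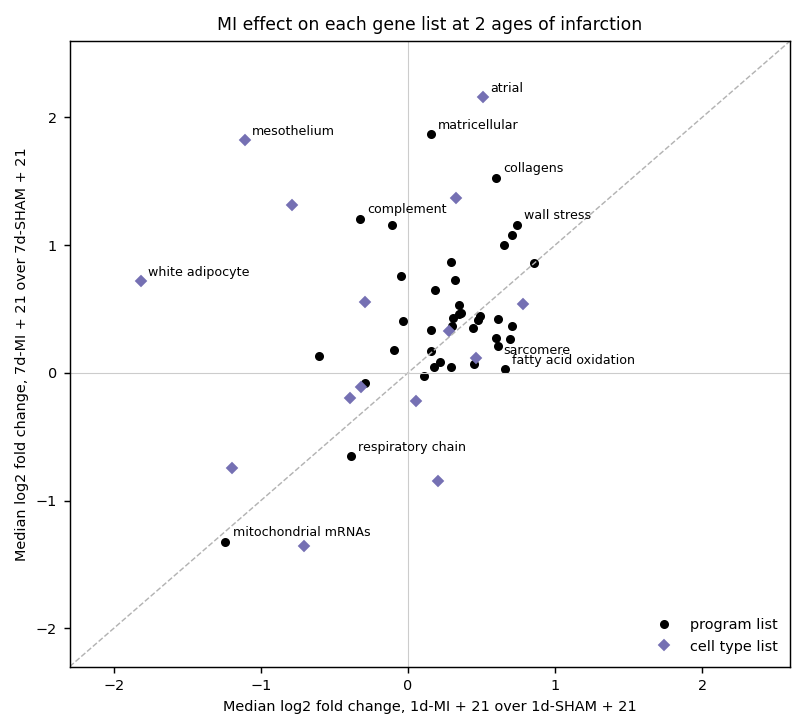
Median log2 fold change of each gene list after infarction at 7 days (7d-MI + 21 over 7d-SHAM + 21, vertical axis) against that after infarction at 1 day (1d-MI + 21 over 1d-SHAM + 21, horizontal axis), with program lists as circles, cell type lists as diamonds and a dashed line of equal effects. Matricellular (1.87 against 0.16), collagen (1.53 against 0.60), complement (1.21 against −0.32) and mesothelial and epicardial (1.82 against −1.11) lists lie above the line, and fatty acid oxidation (0.03 against 0.66) below it. The fatty acid oxidation median at 7 days was 0.76 without sham mouse 1 and −0.57 without sham mice 2 and 3, so no direction is given for it.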

How the data were processed

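The authors deposited, for each library, a count per gene, used here as it stands, beside CPM, RPKM and log2 columns. Gene lengths were recovered from the ratio of the deposited CPM to RPKM. These lengths entered the reads per kb, the background subtraction and the gene lengths given above. The deposited columns beside the counts were not otherwise used. Their processing notes name TopHat2 2.0.11, Bowtie2 2.2.2, Cufflinks 2.2.1 and GRCm38, for libraries made with ScriptSeqV2 from TRIzol RNA. How reads were counted, on which strand and with what rule for shared reads was not stated in any source read, so a gene and an antisense partner cannot be told apart. For 7d-SHAM + 21 mouse 3 and 1 library of 1d-SHAM + 21, 2 lane files were summed. Of 45318 gene IDs 311 were not matched to GENCODE M21, the source of symbols and coordinates, and 6 listed symbols were not matched.

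Genes were kept by filterByExpr (at least 10 counts, and 15 in total), TMM-scaled, and fitted with edgeR 4.0.16 (quasi-likelihood, robust, 12 libraries, a mean per group) in R 4.3.3, with Benjamini-Hochberg adjustment over 24646 genes at 0.05. The biological coefficient of variation was 0.567. Standard errors (SE) were derived from the fold change and its F statistic. For the test of the transcriptome the methods refer to supplementary material not used here, and p-values measure the spread between these mice. Lists (39 programs, 15 cell types, 3 technical) were summarised by medians and counts, with no set test, and the technical lists only guided scaling. The comparison, members and lists were chosen with earlier results of these data known. Named genes are a set of anchors, up to 3 members of smallest p in the direction of each list and 1 in the other with a mean of at least 1 CPM, and the 6 highest and 6 lowest protein-coding genes by fold that do not overlap, with a mean of at least 5 CPM. Cell-type lists without a named member are given by their sums, and not all genes allowed by the rule are named, some not being reported here. Alternatives were RLE and upper-quartile scaling, TMM without ribosomal and mitochondrial loci or without the 20 top genes, filtering off, a mean count of at least 50, protein-coding genes only, no robust step, DESeq2 1.42.0, limma-voom (limma 3.58.1) with and without quality weights, the 2 groups alone, the replicate block, single lanes and each library left out. The omission of sham mice 2 and 3 together and the subtraction of receptor-gene background were added after seeing the data. The script was tested on simulated counts with less variation than these data and with no unlike shams. That test therefore does not tell how many true differences could be found here.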

Additional observations from a re-analysis of the deposited data

How the results depend on the processing

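With 3 mice a group, 1 prefix per group and unlike shams, no gene passed at library totals of 43792265 counts or more. Genes called higher and lower numbered 234 and 149 with no filter, 342 and 686 with DESeq2, 5464 and 5735 with voom quality weights (which gave sham mouse 1 a weight of 0.102), 7 and 1 without sham mice 2 and 3, 14 and 0 with limma-voom, 3 and 0 with lane 1 alone, 2 and 0 after background subtraction, and 1 and 0 with either reduced TMM. Leaving out 1 library gave 0 to 3151 higher and 0 to 2752 lower, the highest without sham mouse 1; without infarcted mouse 2 it was 23 and 1, and without sham mouse 3 10 and 1. For the difference between ages the counts were 17 (no filter), 44 (DESeq2), 21 (quality weights), 2 and 1 (lanes 1 and 2), 20 (without sham mice 2 and 3), 2 (background subtraction) and 0 to 7 with 1 library left out. The cause was not tested.

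Replicate numbers gave no clear pairing of the mice. Correlations of deviations were 0.162, 0.259 and −0.107 for like numbers 1, 2 and 3, and −0.252 to 0.157 for unlike numbers. The replicate block gave 26 genes higher and 20 lower, and 0 for the difference between ages.

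Without sham mice 2 and 3 the list median was 0.74 for wall stress and fetal genes, −0.41 for adult sarcomere, 0.54 for myofibroblast and cytoskeleton, 1.80 for acute phase and alarmins, 0.97 for MHC class II presentation, −0.09 for mitochondrial genome messenger RNAs and 0.51 for DNA replication and mitosis. Upper-quartile scaling gave 0.77 for small leucine-rich proteoglycans, 0.42 for TGF-beta ligands, receptors and latent binders, 0.75 for complement, −0.04 for MHC class II presentation, 0.38 for interferon-stimulated and −0.13 for DNA replication and mitosis. The stricter filter gave 0.96 for complement and 0.77 for MHC class II presentation, and background subtraction 0.89 for complement. With 1 library left out the medians ran from 0.76 to 1.30 for wall stress and fetal genes, 0.08 to 1.18 for adult sarcomere, 0.91 to 1.80 for collagen-modifying enzymes, 0.66 to 1.16 for myofibroblast and cytoskeleton, 1.00 to 1.42 for complement, 0.71 to 1.5 for lysosome and phagocyte program, −0.10 to 0.76 for fatty acid oxidation, 0.04 to 0.73 for PGC-1, PPAR and ERR regulators and 0.17 to 1.02 for IGF and insulin signaling. In 1246 cases a list median under an alternative moved by less than the spread between mice, and in 103 by more. That spread includes the distance between the shams, so a change of sign can stand among the 1246. Fatty acid oxidation, at 0.03 with all shams and −0.57 without sham mice 2 and 3, is such a case. Omissions of libraries from mice operated at 1 day, which belong to neither group, are counted too. The counts are therefore no measure of how steady a list is.

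Among named genes the sign of *Esrra* turned with upper-quartile scaling (−0.05), without sham mice 2 and 3 (−0.26) and over single omissions (−0.17 to 0.59). That of *Slc25a20* turned with TMM without ribosomal and mitochondrial loci (0.03) or the most abundant genes (0.02), limma-voom (0.04), quality weights (0.45), the replicate block (0.02) and single omissions (−0.33 to 0.50). *Nr4a3* turned with upper-quartile scaling (−0.18), the stricter filter (−0.01) and single omissions (−0.10 to 0.89). Without sham mice 2 and 3 *Cpt1b* was −0.64, *Bdh1* −0.05 and *Ogn* 0.83, and over single omissions *Pdk4* ran from −0.75 to 0.05 and *Ogn* from −0.43 to 0.21. In 370 cases a named gene newly passed the threshold in its main direction, a count that by its definition leaves out changes of sign. Named genes were picked in part by smallest p, so the count says nothing of genes in general.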
